A study of Mus musculus with 4 samples.

Results

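The expression profile of 3T3-L1 cells exposed to cyanidin was compared with that of cells exposed to the solvent DMSO on day 2 of adipocyte differentiation, with 1 array for each. All genes that could be measured on both arrays were described, and 13167 of the 21312 genes named on the array were usable in this sense. These 2 samples are part of a series of 4, in which 1 array was also hybridized for delphinidin and 1 for bilberry extracts. A gene was usable when a probe of it was well above background on the cyanidin and the DMSO array and had no spot marked as an outlier, and where it had several such probes the brightest was taken. Signals are given relative to the 75th percentile of their own array, so that a scaled signal of 1 is that percentile. The log2 ratio is the log2 scaled signal with cyanidin minus that with DMSO, and a gene past 2-fold has a log2 ratio over 1 or under -1. With 1 array per condition there is no estimate of the spread between cultures, and no test or p-value is given for any difference.

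3T3-L1 is a line of mouse fibroblast-like preadipocytes that becomes lipid-storing adipocytes after hormonal induction. The compounds were dissolved in DMSO, which was at 0.1% in the medium of all 4 cultures. The DMSO cells received the solvent alone, the cyanidin cells 100 nM cyanidin, the delphinidin cells 100 nM delphinidin and the bilberry cells 100 ug/ml bilberry extracts. All 4 cultures shared an induction medium with dexamethasone at 1 uM, insulin at 10 ug/ml, IBMX (written as 0.5 uM in the labels) and 10% fetal calf serum. The cells are a cultured line without other cell types of a tissue, so that the arrays report on differentiation in culture only. The question of the comparison was which transcripts differed early in differentiation when an anthocyanidin was present.

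Cyanidin is an anthocyanidin, the sugar-free form of the plant pigments that color bilberries, and delphinidin carries an additional hydroxyl group on the B-ring. After induction, confluent 3T3-L1 cells re-enter the cell cycle and pass through a phase of division known as mitotic clonal expansion. The early factors C/ebpβ and C/ebpδ act in this phase and are followed by Pparγ and C/ebpα, which direct the genes of lipid storage, while preadipocyte and matrix genes are turned down.

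The labels call the cells adipocytes. The 7 adipocyte markers used for this check (Pparg, Cebpa, Fabp4, Adipoq, Plin1, Lpl and Cd36) were usable, and so were the 6 preadipocyte or fibroblast markers (Pdgfra, Pdgfrb, Thy1, Col1a1, Col3a1 and Vim). Of the longer lists, 35 of the 44 mature adipocyte genes and 17 of the 19 preadipocyte genes on the array were usable. Fabp4, a fatty acid carrier of adipocytes, had a scaled signal of 264.5 with DMSO and 258.0 with cyanidin. Adiponectin (Adipoq), a hormone of mature fat cells, was at 1.16 and 1.36, and on none of the 4 arrays was leptin (Lep), another such hormone, well above background. Vim, an intermediate filament of fibroblasts, was at 186 and 155. The arrays therefore held markers of adipocytes and of preadipocytes together. Markers of other lineages were in part well above background on both the DMSO and the cyanidin array. These were 5 of 10 macrophage markers (Cd68, Csf1r, Cd14, Lyz2 and Aif1), 2 of 9 endothelial (Vwf and Esam), 4 of 9 skeletal muscle (Tnnt3, Acta1, Des and Mymk), 4 of 8 epithelial (Krt5, Krt8, Krt14 and Krt19) and 6 of 9 bone and cartilage markers. Cd14, a coreceptor for lipopolysaccharide, was at 0.757 with DMSO and 0.556 with cyanidin, Tnnt3, a troponin, at 0.587 and 0.62, and Spp1 (osteopontin), a matrix protein, at 40.6 and 34.1. No array had a signal well above background for Adgre1, Ptprc and Itgam of macrophages, Pecam1 and Cdh5 of endothelium, Myod1 and Myog of muscle or Epcam of epithelium.

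The scaling divided the DMSO array by 860.9 and the cyanidin array by 1016, and these arrays had 24059 and 24693 probes well above background. The 4 arrays lay on 1 slide and were scanned together, so that slide and scan did not differ between the groups. Replicate spots of a probe had a median SD of the log2 ratio of 0.034 over 151 probes, which covers the spots of these arrays and not the cultures. Different usable probes of a gene spread further, with a median range of 0.22 over 5481 genes. Scaling to 10 spike-in controls in place of the 75th percentile moved the median log2 ratio of all genes by 0.23. List medians of cyanidin over DMSO below are as measured, to be read beside the 0.01 over all usable genes. Spike-in scaling adds 0.23 to each of them, which brings those between -0.23 and 0 above 0. Before scaling, the spike-in controls of the bilberry array lay 0.96 above those of the DMSO array on the log2 scale. Its 75th percentile was lower, at 576.1. Spike-in scaling would thus lower every bilberry signal relative to DMSO, and bilberry values here use the 75th percentile only.

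Most transcripts differed little between cyanidin and DMSO. Of the usable genes, 90.4% lay within 1.5-fold, the median log2 ratio was 0.01 and the SD was 0.40. Past 2-fold were 329 genes (2.5%), of which 99 were higher with cyanidin (0.752%) and 230 were lower (1.75%). With normexp background correction the counts were 35 and 73, and with spike-in scaling 199 and 124. Most genes past 2-fold were dim. Among 7489 genes with a scaled signal of at least 1 on an array of the pair, 20 were past 2-fold higher and 24 lower (0.588%), whereas among the 5678 dimmer genes 79 were higher and 206 lower (5.02%). The share of higher genes among those past 2-fold was 30.1% and depended on the scaling, with 43.3% after quantile normalization, 42.6% after centring along the signal and 61.6% with spike-in scaling.

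**Figure D1:**
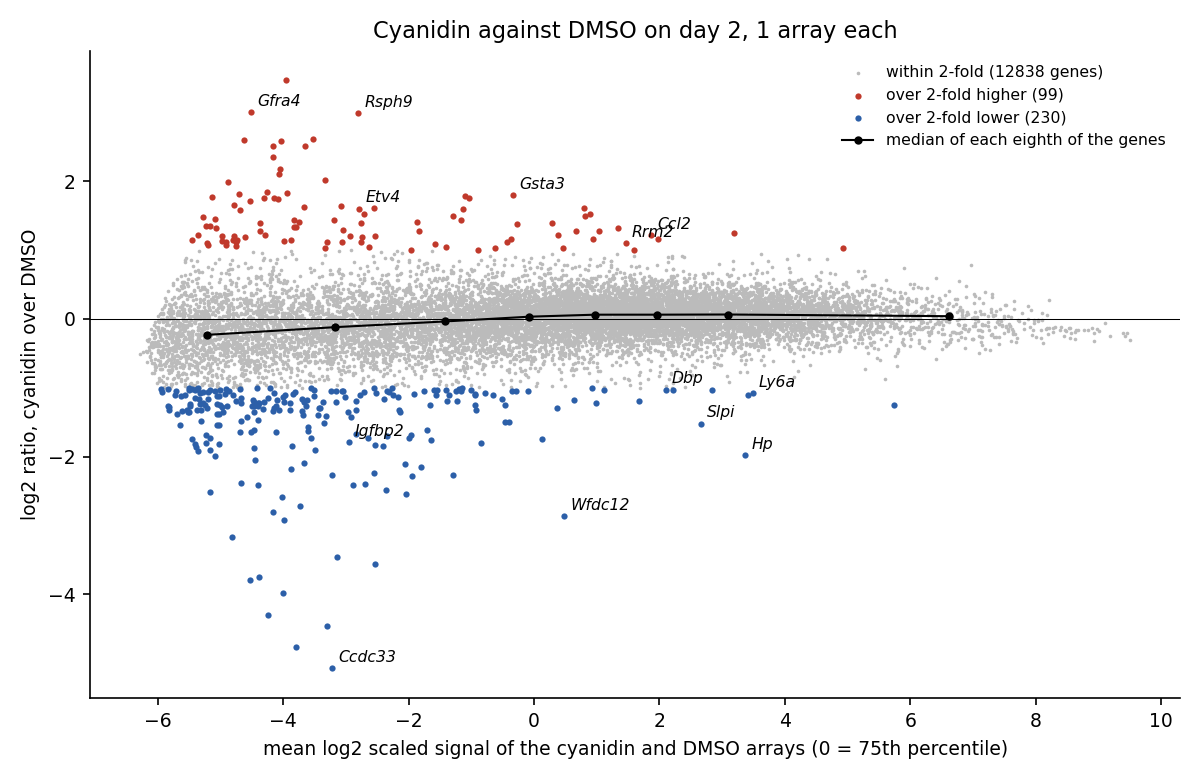
The log2 ratio of cyanidin over DMSO (y axis) against the mean log2 scaled signal of both arrays (x axis, 0 at the 75th percentile) for 13167 genes, 1 array each. Red and blue points are the 99 genes over 2-fold higher and the 230 over 2-fold lower, which crowd at low signal. The black line joins the median ratio of each eighth of the genes. It runs from -0.23 at the lowest signal to about 0.06 in brighter eighths and 0.04 in the brightest.

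Among named genes with a scaled signal of at least 1 on an array of the pair, the 8 highest with cyanidin were Gsta3, Angptl7, Adh1, Clca3a2, Ogn, Acsbg1, Clca3a1 and Arhgap22. In all 8 the DMSO array was the lowest of the 4 at this scaling. The genes were chosen by a high ratio to that array, which itself favors a low DMSO signal. Gsta3, a glutathione S-transferase, had scaled signals of 0.425 with DMSO, 1.48 with cyanidin, 1.22 with delphinidin and 1.33 with bilberry, and a log2 ratio of 1.80 (3.48-fold), with its usable probes at 1.71 and 1.80. Adh1, an alcohol dehydrogenase that also oxidizes retinol, was at 1.09 with DMSO against 3.14, 3.13 and 2.75, a log2 ratio of 1.52, with probes at 1.45 and 1.52. Angptl7, a secreted angiopoietin-like protein, was at 0.99 with DMSO and at 3.04, 4.15 and 2.37 on the other arrays, a log2 ratio of 1.62. Ogn, a small leucine-rich proteoglycan of the matrix, was at 0.75 with DMSO and 1.96 with cyanidin, and higher still with delphinidin at 3.83. Acsbg1, an acyl-CoA synthetase, was at 0.513 and 1.34, and Arhgap22, a regulator of Rac GTPases, was at 1.02 and 2.47. Clca3a1 and Clca3a2, a pair of chloride channel regulators, had log2 ratios of 1.32 and 1.495. On the bilberry array they were at 1.95 and 1.37, closer to the 1.61 and 1.04 with DMSO than to the 4.01 and 2.94 with cyanidin. They are near-identical copies, so their probes may share targets and their separate values are uncertain.

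Further genes measured by several probes passed 2-fold on each of them. Dhrs3, which reduces retinal to retinol, was at 1.27 with DMSO against 2.86, 3.53 and 3.72, with probes at 1.13 and 1.17. Adamts8, Mmp9 and Tcstv1 were dimmer. Adamts8, a secreted metalloprotease, was at 0.09 with DMSO, 0.259 with cyanidin, 0.568 with delphinidin and 0.3 with bilberry, with probes at 1.39 and 1.52. Mmp9, a gelatinase, was at 0.086 with DMSO and 0.199 with cyanidin, and at 0.101 with delphinidin. Tcstv1, of a family with near-identical copies and therefore uncertain, had probes at 1.71 and 1.72. Under normexp background correction the log2 ratio of Adamts8 was 0.99, that of Mmp9 0.77 and that of Tcstv1 0.64.

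The 8 lowest of these brighter genes were Wfdc12, Hp, Emilin2, Serpina3n, Slpi, Adssl1, Il13ra1 and Chst8. Wfdc12, a small secreted protease inhibitor, had a scaled signal of 3.78 with DMSO and 0.518 with cyanidin, 0.202 with delphinidin and 0.176 with bilberry, a log2 ratio of -2.87 (7.29-fold lower). Haptoglobin (Hp), which binds free hemoglobin and is made in liver and fat, was at 20.5 with DMSO and 5.18 with cyanidin, and lower again at 2.76 and 2.26 with delphinidin and bilberry, a log2 ratio of -1.98. Slpi, an inhibitor of leukocyte proteases, was at 10.7 with DMSO and 3.72, 2.81 and 4.54 on the other arrays. In all 8 the DMSO array was the highest of the arrays with a value, which for Emilin2 leaves out bilberry. The choice by a low ratio likewise favors a high DMSO signal. Serpina3n, a serine protease inhibitor, was at 1.99 with DMSO and 0.594 with cyanidin, a log2 ratio of -1.74. Serpina3k had probes at -2.03 and -1.73 and Serpina3f at -1.45 and -1.27, the latter at -0.66 under normexp. These 3 serpins belong to a cluster of near-identical copies, so that they may not be 3 separate measurements. Emilin2, an elastic fiber glycoprotein, was at 1.03 with DMSO and 0.297 with cyanidin, with probes at -1.79 and -1.54. Il13ra1, a receptor subunit for interleukin 13, was at 1.21 and 0.432, with probes at -1.80 and -1.49. Adssl1, an enzyme of purine nucleotide synthesis, and Chst8, a sulfotransferase, had log2 ratios of -1.497 and -1.29.

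**Figure D2:**
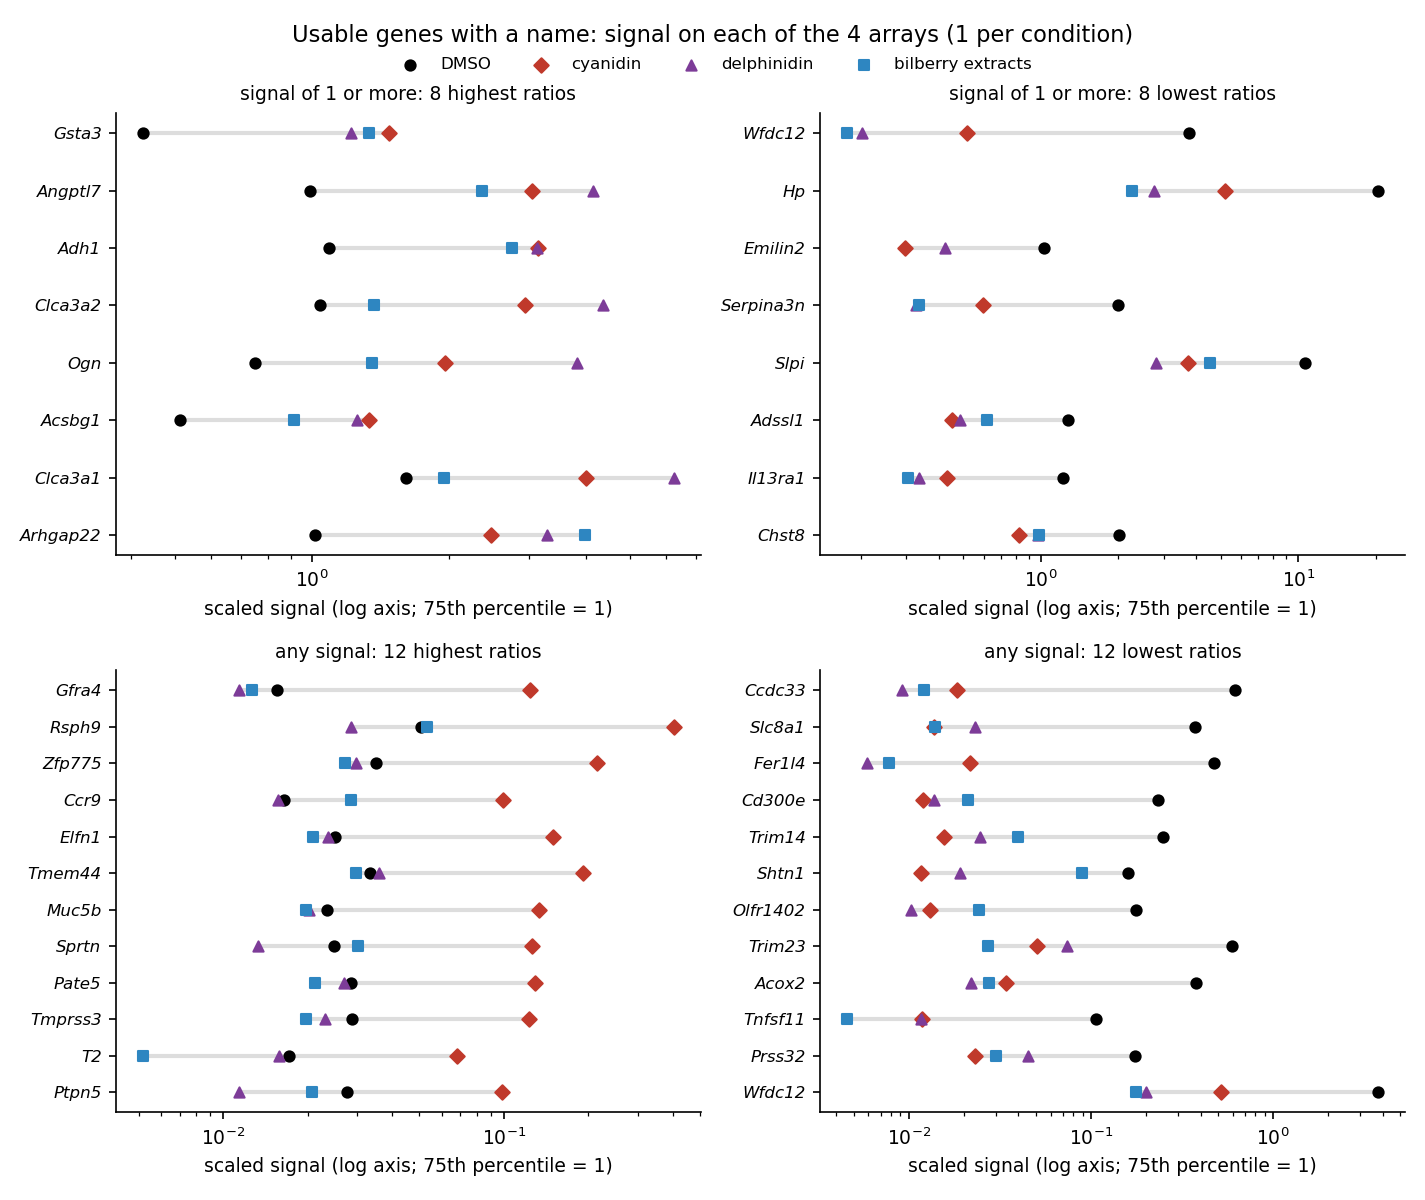
Scaled signal (log axis, 75th percentile at 1) on each of the 4 arrays, 1 per condition, for usable genes with a name, the 8 highest and 8 lowest ratios among those with a signal of 1 or more and the 12 highest and 12 lowest at any signal. At this scaling DMSO is, in the upper panels, the lowest of the 4 arrays (left) or the highest of those with a value (right). Bilberry is close to DMSO for Clca3a1 and Clca3a2. In the lower left panel the cyanidin array alone is high in all 12 genes, and in the lower right panel the DMSO array is the highest in all 12. The genes were chosen by the ratio, which itself favors these patterns.

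Genes of DNA replication had the highest median of the lists other than the 4 usable epithelial markers, whose median was 0.66. All 59 genes were usable, 57 had a ratio above 0, and the median log2 ratio was 0.52, against 0.01 and 50.7% above 0 over all usable genes. Past 2-fold were 2 higher and 0 lower, against 0.752% and 1.75% of all usable genes, and 23 lay over 1.5-fold higher, where 422 of the 13167 usable genes did. Rrm2, the small subunit of ribonucleotide reductase, was at 1.87 with DMSO, 4.03 with cyanidin, 5.34 with delphinidin and 5.90 with bilberry, a log2 ratio of 1.11. E2f2, a transcription factor of the G1 to S transition, was at 0.381 with DMSO and 0.765 with cyanidin, a ratio of 1.00 that was 0.89 under normexp. Mcm5, a subunit of the replicative helicase, was at 3.75 with DMSO and 7.04 with cyanidin, and its partners Mcm2, Mcm3, Mcm6, Mcm7 and Mcm4 had log2 ratios of 0.76, 0.73, 0.60, 0.57 and 0.37. Pcna, the sliding clamp of DNA polymerase, was at 28.2 and 45.9. Cyanidin lay between DMSO and delphinidin for Rrm2, Mcm5 and Pcna. The exceptions below 0 were Ccne2 at -0.14 and E2f3 at -0.16. Relative to all genes the list median was 0.517, and between 0.479 and 0.534 under the alternatives.

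Mitosis and spindle genes lay nearly as high. All 65 were usable, 60 were above 0, 0 passed 2-fold either way (2.5% over all usable genes), and the median was 0.44. Top2a, the topoisomerase that untangles replicated chromosomes, was at 1.79 with DMSO, 3.46 with cyanidin, 3.71 with delphinidin and 1.71 with bilberry, with probes at 0.91 and 0.95. Cdk1, the kinase that drives entry into mitosis, was at 2.23 and 3.78, and its partner Ccnb1 at 1.62 and 2.43. Other members sat near 0, such as Cenpf at 0.00 and Ccnb2 at 0.02, and Cdc25b was lowest at -0.18. The median of this list was 0.70 with delphinidin and 0.11 with bilberry, against 0.90 and 0.83 for the replication list, and all these ratios share the DMSO array. Among 23 G1 cyclins and inhibitors only Ccnd1 passed 2-fold, where 2.5% of all usable genes did. Ccnd1, the cyclin that couples growth signals to the cycle, was at 1.31 with DMSO, 3.19 with cyanidin, 3.78 with delphinidin and 3.70 with bilberry, a log2 ratio of 1.28, while the list median was 0.08. Cdkn1a, an inhibitor of the cycle, was at 0.54 and Cdkn1b at -0.26. In bulk RNA, more cells in a phase and more RNA per cell cannot be told apart.

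**Figure D3:**
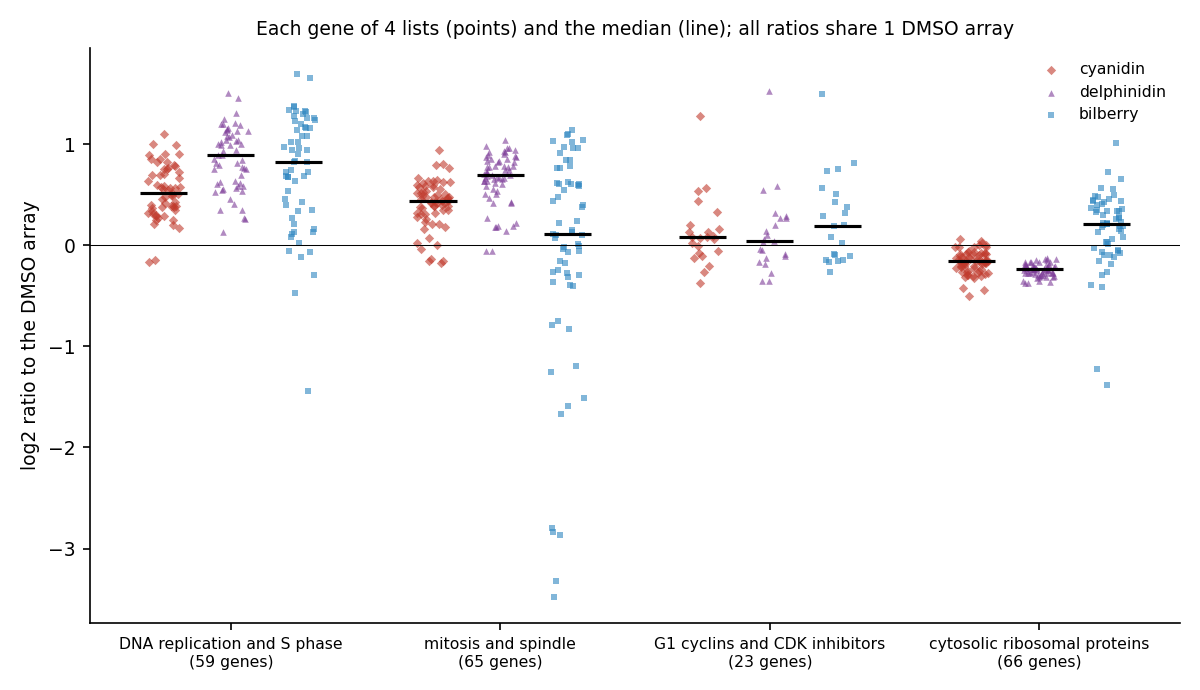
Log2 ratio to the DMSO array (y axis) for each gene of 4 lists, with the cyanidin, delphinidin and bilberry arrays in red, purple and blue and the median as a black line. The cyanidin medians are 0.52 for replication, 0.44 for mitosis, 0.08 for G1 cyclins and inhibitors and -0.16 for ribosomal proteins.

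Promoters of these lists were read for short sequence strings because their members lay to one side together. The 250 bases before the first listed start were taken from RefSeq on GRCm38.p6, and both strands were searched for 7 strings, which were chosen after the gene values had been seen. TTCCCGC or TTGGCGC, letters of the E2F recognition sequence, stood in 16 of 48 replication promoters, 7 of 55 mitosis promoters and 10.0% of the 10017 promoters of usable genes (5.71% of all 27025 promoters). CCAAT, the letters bound by NF-Y, stood in 30 of 48 replication promoters and 40 of 55 mitosis promoters, against 36.8% of usable genes and 34.5% of all. TTTGAA, letters of the cell cycle homology region, stood in 19 of 55 mitosis promoters and 7 of 48 replication promoters, against 10.6% of usable genes and 16.3% of all. TTCGAA, of the same kind, stood in 3 of 55 and 2 of 48, against 1.78% of usable genes and 1.34% of all. CCGGAAG, letters of ETS factor sites, stood in 13 of 48 replication and 11 of 55 mitosis promoters, against 13.7% of usable genes and 7.05% of all. TGANTCA, letters of AP-1 sites in which N is any base, stood in 0 of both lists, against 4.45% of usable genes and 6.87% of all. The 29 promoters of the chemokine, cytokine and acute phase list held TGANTCA in 6, CCAAT in 9, TTTGAA in 5, TTCCCGC or TTGGCGC in 1, and TTCGAA and CCGGAAG in 0. These counts describe letters in a window and show no binding.

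The replication promoters shown are the 4 with the highest log2 ratios among those that hold TTCCCGC or TTGGCGC, with these letters on either strand in capitals, so that GCGGGAA and GCGCCAA also count. They are E2f8 (chr7:48881597-48881846, minus strand), Mcm5 (chr8:75109259-75109508, plus strand), Cdc6 (chr11:98907901-98908150, plus strand) and Chaf1a (chr17:56040166-56040415, plus strand), each 5′ to 3′.
E2f8: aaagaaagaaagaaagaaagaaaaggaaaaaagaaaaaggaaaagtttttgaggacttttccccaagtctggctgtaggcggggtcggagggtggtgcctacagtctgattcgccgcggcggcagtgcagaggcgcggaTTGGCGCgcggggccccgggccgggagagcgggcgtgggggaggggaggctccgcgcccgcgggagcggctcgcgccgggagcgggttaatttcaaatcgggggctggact
Mcm5: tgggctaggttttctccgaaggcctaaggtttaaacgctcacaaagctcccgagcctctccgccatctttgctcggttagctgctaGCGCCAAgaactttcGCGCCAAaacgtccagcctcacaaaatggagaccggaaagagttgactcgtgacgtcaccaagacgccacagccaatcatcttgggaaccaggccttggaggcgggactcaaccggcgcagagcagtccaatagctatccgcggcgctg
Cdc6: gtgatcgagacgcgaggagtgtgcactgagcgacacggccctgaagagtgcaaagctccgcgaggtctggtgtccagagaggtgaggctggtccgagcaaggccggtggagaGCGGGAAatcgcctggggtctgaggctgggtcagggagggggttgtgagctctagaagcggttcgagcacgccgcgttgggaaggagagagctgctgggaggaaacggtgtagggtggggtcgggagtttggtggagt
Chaf1a: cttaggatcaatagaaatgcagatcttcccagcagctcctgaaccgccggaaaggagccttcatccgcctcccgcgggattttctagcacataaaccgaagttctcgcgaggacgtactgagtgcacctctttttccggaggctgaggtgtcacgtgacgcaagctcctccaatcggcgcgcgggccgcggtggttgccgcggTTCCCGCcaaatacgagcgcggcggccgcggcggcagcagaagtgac

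The log2 ratio of E2f8, a repressor of the E2F family, was 1.00 after rounding, just under the 2-fold threshold. Those of the others were 0.91 for Mcm5, 0.86 for Cdc6, which loads the helicase, and 0.71 for Chaf1a, a histone chaperone. The mitosis promoters shown are the 2 with the highest ratios among those that hold CCAAT, in capitals as CCAAT or ATTGG. They are Top2a (chr11:99024190-99024439, minus strand) with 6 matches and Cenpk (chr13:104228361-104228610, plus strand) with 1, of which the Top2a stretch holds the most.
Top2a: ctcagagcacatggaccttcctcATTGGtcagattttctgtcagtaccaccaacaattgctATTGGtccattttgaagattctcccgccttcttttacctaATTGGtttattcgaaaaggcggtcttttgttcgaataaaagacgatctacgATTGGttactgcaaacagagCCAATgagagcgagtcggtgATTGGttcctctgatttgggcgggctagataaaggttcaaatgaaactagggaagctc
Cenpk: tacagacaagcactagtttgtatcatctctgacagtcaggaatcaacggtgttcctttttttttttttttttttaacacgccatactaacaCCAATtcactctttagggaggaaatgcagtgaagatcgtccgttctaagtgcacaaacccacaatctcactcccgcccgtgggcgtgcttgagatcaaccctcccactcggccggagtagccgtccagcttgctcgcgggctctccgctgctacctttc

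Cenpk, a kinetochore protein, was at 0.833 with DMSO and 1.45 with cyanidin, a log2 ratio of 0.80, but its lowest usable probe was at 0.12.

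The adipogenic factors differed little, as did most genes. Of 36 usable factors 0 passed 2-fold, which lies near the 2.5% of all usable genes and does not set the list apart. Above 0 were 13, and the median was -0.09. Pparg, the nuclear receptor that directs fat cell genes, was at 16.04 with DMSO, 19.9 with cyanidin, 19.9 with delphinidin and 17.8 with bilberry. Cebpa, which acts beside it, was at 4.90 with DMSO and 6.11 with cyanidin, and Klf5, which acts earlier, was at 3.90 and 5.11. The early factors Cebpb and Cebpd were at 121 and 123 with DMSO and 97.4 and 102 with cyanidin. These differences, with log2 ratios from -0.31 to 0.39 for the 5 factors, lay within 1.5-fold. Ppargc1b, a coactivator, was highest at 0.76, though another of its probes was at -0.18, and Klf15, a glucocorticoid-induced factor, was lowest at -0.72. Srebf1 was not usable.

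Genes of mature adipocytes lay somewhat higher. Of 35 usable genes 1 passed 2-fold higher and 1 lower, which lies near the 0.752% and 1.75% of all usable genes. Above 0 were 25, and the median was 0.23, or between 0.194 and 0.285 relative to all genes under the alternatives. Cfd (adipsin), a complement protease secreted by fat cells, was at 0.266 with DMSO, 0.894 with cyanidin, 0.589 with delphinidin and 0.462 with bilberry, a log2 ratio of 1.75. Lpl, which releases fatty acids from lipoproteins, was at 95.6 with DMSO and 164 with cyanidin. Plin1, a coat protein of lipid droplets, was at 6.74 and 10.5, and Cidec, which enlarges droplets, was at 22.1 and 34.8. Cyanidin gave the highest of the 4 signals for Cfd, Lpl, Plin1 and Cidec. The gene lowest with cyanidin, Trarg1, a regulator of glucose transporter traffic, was at 0.31 with DMSO and between 0.0413 and 0.0584 on the other arrays, from 1 probe in the middle rows described below. Fasn, the fatty acid synthase, had a ratio of 0.30, and Slc2a4, the insulin-responsive glucose transporter, of -0.28. In the list of fatty acid and triglyceride synthesis 0 of 31 genes passed 2-fold and the median was 0.04.

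Preadipocyte and fibroblast markers lay lower, with 3 of 17 above 0 and a median of -0.22. Of them 1 was past 2-fold lower, where 1.75% of all usable genes were. Ly6a (Sca-1), a surface marker of progenitors, was at 16.3 with DMSO, 7.69 with cyanidin, 3.43 with delphinidin and 3.71 with bilberry. Thy1, a fibroblast surface protein, was at 65.2 with DMSO and 35.7 with cyanidin. With spike-in scaling Ly6a was at -0.85. The summed scaled signal of the markers with values on all 4 arrays was 610.5 with DMSO, 497.6 with cyanidin, 532.0 with delphinidin and 587.5 with bilberry for preadipocytes. For mature adipocytes it was 1270, 1383, 1271 and 1348. Such a sum is weighted toward its brightest genes, which did not move together. With bilberry Fabp4 was at 137.3 against 264.5 with DMSO, while Angptl4 was at 341.6 against 266.6. With cyanidin Lpl was at 163.9 against 95.56 with DMSO, while Cav1 was at 173.5 against 216.1. For other lineages the summed signals were 1.17 and 0.908 for macrophage markers, 0.0824 and 0.087 for endothelial markers, 0.804 and 0.83 for muscle markers, and 48.9 and 41.7 for bone and cartilage markers with DMSO and cyanidin. Epithelial markers summed to 0.23 and 0.322, and Krt8, a keratin, passed 2-fold at 1.06, which was 0.17 under normexp. Relative to all genes the median of the macrophage markers changed sign under 2 alternatives, that of the endothelial markers under 2 and that of the muscle markers under 1. The part of these markers in other results was not tested.

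Insulin signaling genes, the pathway the study examined, had 0 of 65 usable genes past 2-fold. Over all usable genes the share was 2.5%, and the count of the list lies near it. Of the 65 genes 36 were above 0 and the median was 0.03, which changed sign relative to all genes under 2 alternatives. Insr, the insulin receptor, was at 0.529 with DMSO, 0.387 with cyanidin, 0.363 with delphinidin and 0.275 with bilberry, a log2 ratio of -0.45. Its substrate Irs1 was at -0.02 and the kinase Akt1 at 0.03. Socs3, an inhibitor of cytokine and insulin receptors, was lowest at -0.53, and Trib3, an Akt inhibitor, was highest at 0.57. Prkaa1, a catalytic subunit of AMP kinase, was at -0.16 and the reference gene Actb at -0.09. Spike-in scaling brings Irs1, Prkaa1, Actb and Fabp4 above 0.

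Matrix genes lay mostly below 0. Of 58 usable genes 14 were above 0 and the median was -0.22. Past 2-fold were 2 higher and 3 lower, where 0.752% and 1.75% of all usable genes were. Mgp, an inhibitor of calcification, was at 2.61 with DMSO, 5.86 with cyanidin, 5.11 with delphinidin and 4.33 with bilberry. Sparcl1, a matricellular protein, was at 6.62, 3.25, 2.71 and 0.757 on the same arrays, a log2 ratio of -1.03 that was -0.80 with spike-in scaling and -0.96 with normexp. Col12a1, a collagen that decorates fibrils, was at 1.11 with DMSO and 0.469 with cyanidin, with probes at -1.25 and -0.76. Col15a1, a basement membrane collagen, was at -1.09. It was at -0.86 with spike-in scaling, -0.98 with quantile normalization and -0.93 with normexp. Among small leucine-rich proteoglycans of the list, Ogn was at 1.39, Prelp at 0.72, Aspn at 0.41, Bgn at 0.23, Fmod at -0.55, Dcn at -0.59 and Lum at -0.79. Lama5, a laminin chain, was the only one of 44 integrin, laminin and adhesion genes past 2-fold, at 0.799 with DMSO and 0.337 with cyanidin. Of 32 matrix proteases and inhibitors 3 passed 2-fold higher (Adamts8, Mmp9 and Mmp3) and 2 lower, where 0.752% and 1.75% of all usable genes did, and all 3 higher genes were under 2-fold with normexp. Of the lower genes, Timp3, an inhibitor of metalloproteases, was at 0.285 and 0.127 and Adamts10 had a second probe at -0.06. The log2 ratio of Timp3 was -1.17, and it was -0.93 with spike-in scaling and -0.92 with normexp. Mmp3, the metalloprotease stromelysin, was at 0.03 and 0.0787, and at 0.51 under normexp. The median of the protease list was -0.06 and changed sign relative to all genes under 3 alternatives.

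Chemokines, cytokines and acute phase genes spread widely. Of 40 usable genes 4 passed 2-fold higher and 4 lower, where 0.752% and 1.75% of all usable genes did, 13 were above 0 and the median was -0.30, the lowest of all lists, next to -0.29 for the 6 usable bone and cartilage markers. The list holds 9 usable CC chemokines, of which 4 passed 2-fold higher (Ccl2, Ccl7, Ccl9 and Ccl11) and Ccl19 lower at -1.12, and Ccl8, Ccl25, Ccl17 and Ccl5 were at 0.39, -0.10, -0.63 and -0.72. Ccl2, which attracts monocytes, was at 2.38 with DMSO, 5.55 with cyanidin, 5.07 with delphinidin and 3.98 with bilberry. Ccl7 was at 0.854 with DMSO and 1.98 with cyanidin, with probes at 1.07 and 1.21. Ccl9 was at 0.113 and 0.233, and the dim Ccl11, with 0.0161 and 0.0374, was at 0.15 under normexp. Cyanidin was the highest of the 4 arrays for Ccl2, Ccl7 and Ccl9. On the lower side, Il33, an alarm cytokine of the nucleus, was at 0.574 with DMSO and 0.252 with cyanidin, a log2 ratio of -1.19 that was -0.95 with spike-in scaling, and Hp is described above. Interferon-stimulated genes lay lower as well, with 6 of 39 above 0, 1 past 2-fold lower and a median of -0.20. That gene, Trim14, had 1 usable probe, in the middle rows described below. It was at 0.248 with DMSO and between 0.0157 and 0.04 on the other arrays. Isg20, an antiviral exonuclease, was at 0.563 with DMSO and 0.292 with cyanidin, a ratio of -0.95.

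Housekeeping lists differed by small amounts in which most members shared a side. Cytosolic ribosomal proteins had 5 of 66 genes above 0, 0 past 2-fold and a median of -0.16, or between -0.189 and -0.067 relative to all genes under the alternatives. Respiratory chain genes had 51 of 61 above 0 and a median of 0.17, led by Cycs, the electron carrier cytochrome c, at 46.4 with DMSO and 77.4 with cyanidin. Proteasome subunits had 29 of 34 above 0 and a median of 0.23. Chaperones had 21 of 29 above 0 and a median of 0.30, with 1 gene past 2-fold, Hsf2, which was at 0.20 under normexp and whose other probe was at -0.24. No gene of these 4 lists other than Hsf2 passed 2-fold, and over all usable genes 2.5% did. Relative to all genes the medians of these 4 lists kept their side of 0 under each alternative run, loess centring along the signal included. Over all genes the median was 0.04 in the brightest eighth and -0.23 in the dimmest.

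**Figure D4:**
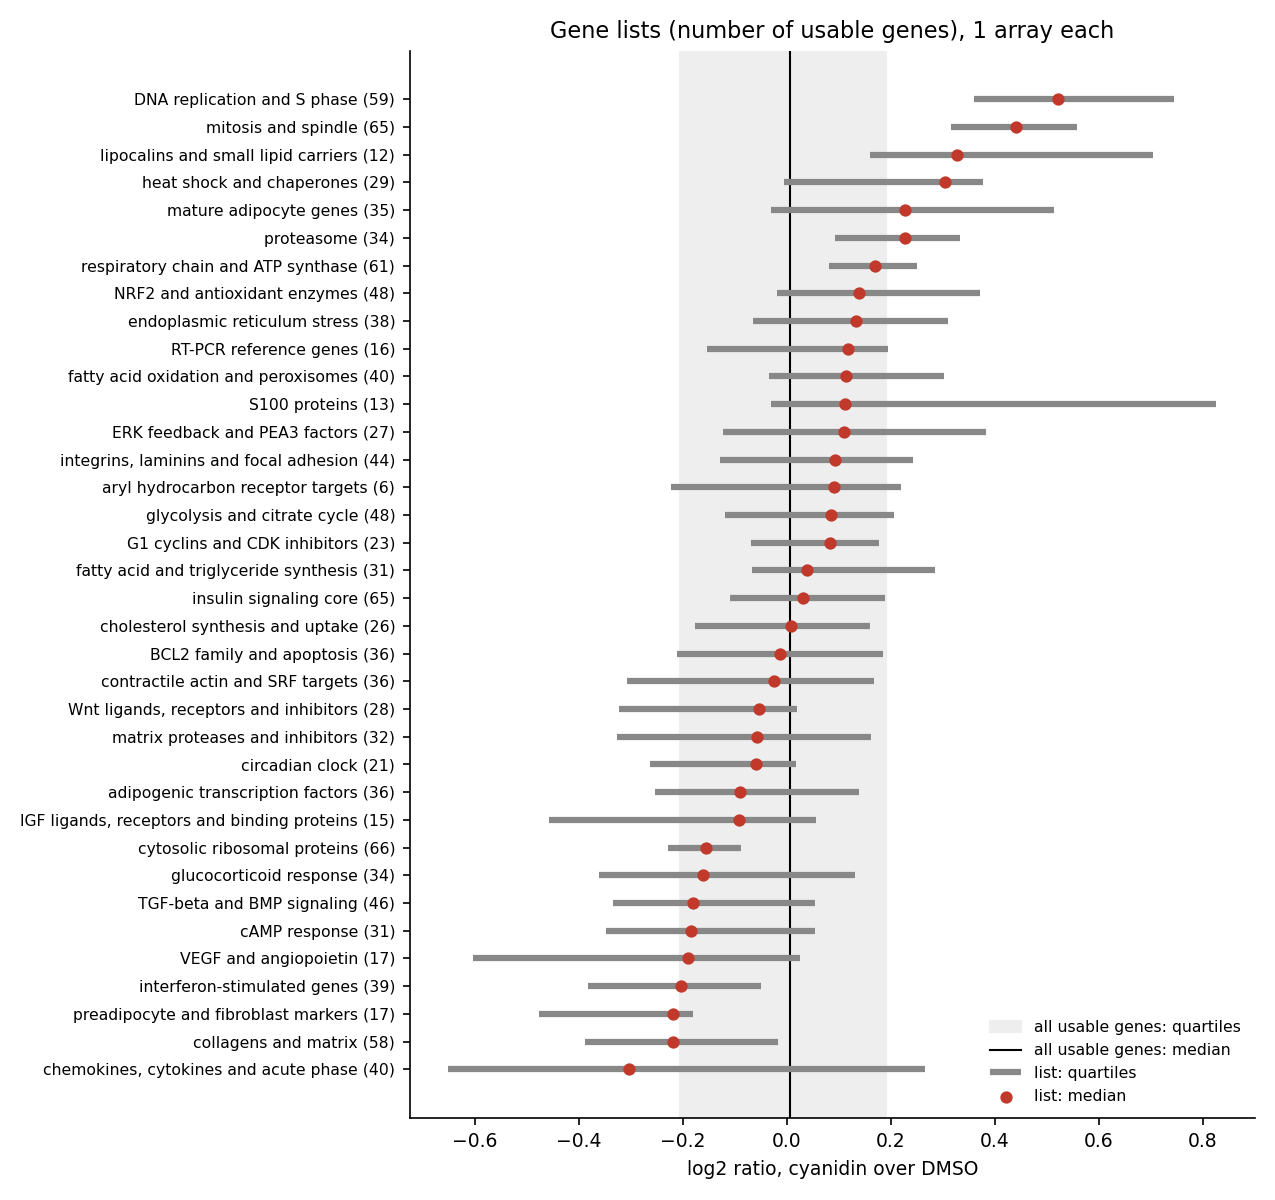
Median log2 ratio of cyanidin over DMSO (red points) and quartiles (gray bars) for each gene list with its number of usable genes, beside the quartiles (gray band) and median (black line) of all 13167 genes. Marker lists of other lineages are not drawn, and of the lists drawn replication at 0.52 and mitosis at 0.44 have the highest medians and chemokines at -0.30 the lowest.

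Among the antioxidant enzymes 34 of 48 were above 0, the median was 0.14 and only Gsta3 passed 2-fold. The counts past 2-fold of this list and the next ones stand beside 2.5% over all usable genes. Ephx1, an epoxide hydrolase, was at 0.81 with DMSO and 1.51 with cyanidin, with probes at 0.83 and 0.90, and Gpx1, a glutathione peroxidase, was at 40.0 and 59.1. Aryl hydrocarbon receptor targets had 0 of 6 past 2-fold and a median of 0.09, with Cyp1b1 at 0.00. Genes of fatty acid oxidation and peroxisomes had 28 of 40 above 0 and a median of 0.11, with Acox2 past 2-fold lower. Acox2 was at 0.375 with DMSO and between 0.0219 and 0.0341 on the other arrays, from 1 probe in the middle rows described below. Cpt1a, which admits fatty acids to mitochondria, was at 4.99 with DMSO and 6.57 with cyanidin. Glycolysis and citrate cycle genes had a median of 0.09, with Eno2 lowest at -0.91, and endoplasmic reticulum stress genes had a median of 0.13, both with 0 past 2-fold. Cholesterol synthesis had 0 of 26 past 2-fold and a median of 0.01, which changed sign relative to all genes under 3 alternatives.

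Glucocorticoid and cAMP response genes lay mostly below 0 at this scaling, with few past 2-fold. Over all usable genes 0.752% were past it higher and 1.75% lower. Glucocorticoid response genes had 13 of 34 above 0 and a median of -0.16, with Sult1a1, a sulfotransferase, at 0.244 with DMSO and 0.687 with cyanidin and Timp3 past 2-fold lower. The classical target Fkbp5 was at 0.09. Genes of the cAMP response had 9 of 31 above 0 and a median of -0.18, with 1 past 2-fold, Adcyap1r1, a receptor of the peptide PACAP, at 0.0322 with DMSO, 0.108 with cyanidin, 0.151 with delphinidin and 0.171 with bilberry. Its ratio of 1.74 was 0.74 under normexp. Of 27 genes of ERK feedback and PEA3 factors, Etv4, an ETS factor, passed 2-fold at 0.0831 with DMSO and 0.252, 0.267 and 0.367 on the other arrays, and the median was 0.11.

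Growth factor families held single members that stood apart. Igfbp6, which binds IGF-2, was at 0.5 with DMSO and 1.09, 1.15 and 1.12 on the other arrays, while Igfbp2 was at 0.24 with DMSO and 0.0695, 0.0716 and 0.0617. At this scaling the 3 treated arrays lay close together on both genes, and the median of the 15 IGF genes was -0.09. Spike-in scaling would lower the bilberry signals relative to DMSO, so the closeness of the bilberry array depends on the scaling. Grem1, a BMP antagonist, was at 2.33 with DMSO and 1.04 with cyanidin, a log2 ratio of -1.17 that was -0.94 with spike-in scaling. The 46 TGF-beta and BMP genes had a median of -0.18. Of 17 VEGF and angiopoietin genes 2 passed 2-fold lower, Flt1, a VEGF receptor with probes between -1.19 and -1.04, and the dim Epas1, where 1.75% of all usable genes did, and the median was -0.19. Neither call held under every alternative, with Flt1 at -0.81 with spike-in scaling and -0.99 with normexp, and Epas1 at -0.99 with loess centring and -0.53 with normexp. Wnt genes had 0 of 28 past 2-fold and a median of -0.05, contractile genes 0 of 36 and -0.02, and BCL2 and apoptosis genes 0 of 36 and -0.01. These counts lie near the 2.5% of all usable genes past 2-fold either way. The BCL2 and apoptosis median changed sign relative to all genes under 2 alternatives.

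Smaller families gave a few more genes past 2-fold. S100b, a calcium-binding protein, was at 0.261 with DMSO and 0.788, 0.969 and 0.86 on the other arrays, and S100a8, a subunit of calprotectin, was at 0.1 and 0.219, with a log2 ratio of 1.12 that was 0.72 under normexp. These were the 2 of 13 S100 genes past 2-fold, where 2.5% of all usable genes were, and the list median was 0.11. Apod, a lipocalin, was at 0.0671 with DMSO and 0.208 with cyanidin, the only one of 12 lipid carriers past 2-fold, with a list median of 0.33, and its log2 ratio of 1.63 was 0.99 under normexp. Dbp, a clock output factor, was at 6.12 with DMSO and 3.00 with cyanidin, the only one of 21 clock genes past 2-fold, with a list median of -0.06. Its log2 ratio of -1.03 was -0.80 with spike-in scaling. Tfrc, the transferrin receptor that imports iron, was at 0.519 with DMSO and 1.17, 1.56 and 1.78 on the other arrays, the only one of 16 RT-PCR reference genes past 2-fold.

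The most extreme ratios came from dim genes and often from 1 array. The 12 highest among genes with a name were Gfra4, Rsph9, Zfp775, Ccr9, Elfn1, Tmem44, Muc5b, Sprtn, Pate5, Tmprss3, T2 and Ptpn5, with log2 ratios from 1.84 to 3.00. In all 12 the cyanidin array was the highest of the 4 on the probe taken, and their signal there was 0.068 to 0.405. With normexp 5 of them were under 2-fold, with Ccr9 at 0.87, Pate5 at 0.93, Tmprss3 at 0.94, T2 at 0.64 and Ptpn5 at 0.71. Gfra4, a receptor of the GDNF family, was at 0.0155 with DMSO, 0.124 with cyanidin, 0.0113 with delphinidin and 0.0127 with bilberry. Another Gfra4 probe lay the other way, at 0.0549 and well above background with DMSO and at 0.00288 and not well above background with cyanidin, so that the direction of this gene is not settled. Sprtn had another probe at 0.34, and the other 11 had 1 usable probe. A Tmem44 probe that was not usable was at 0.00263 with cyanidin, 0.0201 with delphinidin and 0.339 with bilberry. It was well above background on the delphinidin and bilberry arrays only, so the order of the arrays is not settled for Tmem44. The 12 lowest among named genes were Ccdc33, Slc8a1, Fer1l4, Cd300e, Trim14, Shtn1, Olfr1402, Trim23, Acox2, Tnfsf11, Prss32 and Wfdc12, with ratios from -5.08 to -2.87, and the DMSO array was the highest in all 12. The choice by ratio itself favors genes that are high on the cyanidin or on the DMSO array. Ccdc33 was at 0.621 with DMSO and 0.0184, 0.0092 and 0.0121 on the other arrays. Slc8a1, a sodium and calcium exchanger, had another probe at 0.04, and Trim23 had another at -0.43. Over the 61 genes past 2-fold with several usable probes, every probe passed 2-fold the same way in 20 and lay on the same side of 0 in 46.

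Genes past 2-fold were also unevenly placed on the array. A band of rows in the middle of the array, the sixth to the eleventh strip in the plot by place on the array, was chosen with an earlier look at these data. It held 5758 usable genes, of which 61 were higher and 147 lower (3.61%), and the other rows held 7409, of which 38 were higher and 83 lower (1.63%). Of the 12 highest genes 11 lay in these middle rows, and of the 12 lowest 10 did. Of the brighter genes named first, 7 of the 8 highest (the exception is Angptl7) and 5 of the 8 lowest lay there too. Mgp, Cfd and Ly6a also lie there, whereas Ccnd1, Rrm2, Ccl2 and S100b lie outside. The part of this placement in the ratios was not tested.

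**Figure D5:**
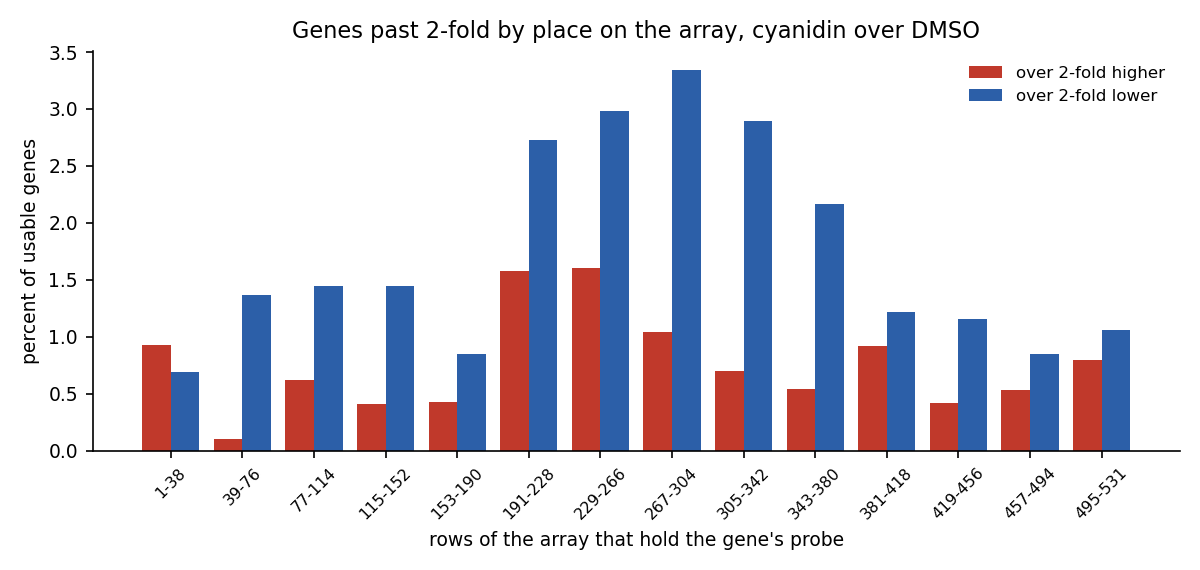
Percent of usable genes over 2-fold higher (red) and lower (blue) with cyanidin, by the rows of the array that hold the gene's probe. The bars for lower genes are tallest from the sixth to the tenth strip, counted from the first row.

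Some genes were well above background on 1 array of the pair, which gives a lower bound of the fold against the dim array. With cyanidin alone there were 579 such genes, and 84 had a bound past 2-fold. With DMSO alone there were 301, and 162 had a bound past 2-fold. Of these, 57 and 131 lay in the middle rows. The lowest scaled signal well above background was 0.0151 on the DMSO array and 0.0107 on the cyanidin array. The part of this difference in the counts of 579 and 301 was not tested. Mfsd6 was at least 15.03-fold higher with cyanidin, and Meox1, a homeobox factor, at least 14.95-fold, and neither was well above background on any other array. Kl, which encodes klotho, was at least 34.7-fold lower, and Hpse, the heparanase, at least 41.8-fold lower. Glt6d1, Slc16a7, Fbxo43 and Bean1 had the other large bounds among the higher genes and Guca1a, Otud1, Lrp2 and Actl6b among the lower.

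Cyanidin and delphinidin were given at the same dose and time, which allows this 1 pair of compounds to be set side by side, without a test or an interval since each had 1 array. Of 13410 genes usable on both arrays, 79 were over 2-fold higher and 74 over 2-fold lower with cyanidin than with delphinidin (1.14%), and the SD of the log2 ratio was 0.31. Other than the 12 highest, among the named genes well above background with delphinidin, Wfdc12 was higher with cyanidin by 1.36 on the log2 scale. Serpina3k was higher by 1.33 and Ly6a by 1.16. Hp was higher by 0.91 and Mmp9 by 0.98. Adamts8 had a log2 ratio of -1.13 to delphinidin, Ogn of -0.96 and Apod of -0.93. Adh1 differed by 0.00 and Pparg by 0.00. Against the shared DMSO array, delphinidin had 168 genes past 2-fold higher and 266 lower of 13233, and bilberry had 518 and 826 of 12649. The bilberry counts were not repeated with spike-in scaling, which would lower every bilberry signal relative to DMSO and change both counts.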

How the data were processed

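Total RNA of 3T3-L1 cells was labeled with Cy3 and hybridized to Agilent Whole Mouse Genome arrays, 1 per condition. The authors deposited the scanner output, in which the processed signal is an intensity corrected for background and spatial trends by Feature Extraction. The deposited table of the series held the same intensity, with a largest relative difference of 0 over 45018 rows. The authors' methods scale each array to its 75th percentile, which the deposited values do not yet include and which was applied here over 43379 non-control spots. The single array per condition sets the precision, and signal over background stands in for depth.

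Spots marked as outliers were left out, spots were averaged by probe on the log2 scale, and 23193 of 41174 probes were usable, 2157 of them without a symbol. The files name the probes, and 24496 probes took their symbol through their accession in the RefSeq annotation of GRCm38.p6. Promoter sequences came from RefSeq on the same build. Named genes are the 12 highest and lowest ratios, the 8 highest and lowest among genes with a scaled signal of at least 1, up to 8 each way with 2 or more probes past 2-fold, list genes past 2-fold (the 3 highest and 3 lowest where a list has over 6), genes the study names, and the 6 largest bounds each way. Unnamed gene models were counted and not named. A withheld item is not reported here. Other list genes, and the promoters shown, were chosen as examples after their values were seen. The members, the 41 gene lists and the middle rows were chosen with earlier results of these data known. Lists were described by counts and medians. Alternatives covered scaling, background (normexp with an offset of 50), filters, marked spots, probe choice, rows, thresholds and the deposited table. The steps were run on simulated data with planted changes past 2-fold and noise smaller than the spread of the real ratios. That run checked the computation and not the reliability of the calls. Computation ran in R 4.3.3 with limma 3.58.1 and in Python 3.11.15 with statsmodels 0.14.6, scipy 1.17.1, pandas 2.3.3, numpy 2.4.6 and matplotlib 3.10.9.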

Additional observations from a re-analysis of the deposited data

How the results depend on the processing

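No paired analysis was possible because each condition had 1 array, and for the same reason no replicate could be left out. Genes past 2-fold numbered 329 (99 higher, 230 lower) and were counted anew under each alternative, so these totals are not parts of the 329. The total was 108 with normexp (35 and 73) and 1516 without a filter on detection (516 and 1000). It was 31 above the median signal on both arrays (16 and 15) and 147 without the middle rows (44 and 103). At 1.5-fold there were 1263 (422 and 841) and at 3-fold 94 (31 and 63). Spike-in scaling gave 199 higher and 124 lower. The share that was higher, 30.1%, was 43.3% with quantile normalization, 61.6% with spike-in scaling, 42.6% with loess centring and 51.6% above the median signal. Of genes well above background on 1 array, 84 of 579 higher and 162 of 301 lower had bounds past 2-fold. Counts under the other alternatives stayed within 1.5 times the reported ones. Of the genes named by rule, 81 were past 2-fold. None of these 81 changed sign under the scalings, normexp or the mean of probes, but normexp left 24 of them under 2-fold, spike-in scaling 8, the mean of probes 2, and quantile normalization and loess centring 1 each. The cause of these shifts was not tested. Of the genes past 2-fold, 79 higher and 206 lower had a scaled signal under 1 on both arrays.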
